A study of Homo sapiens with 12 samples.

Results

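The response of wild type HaCaT cells, a spontaneously immortalised human keratinocyte line, to 8 h of 1,25(OH)2D3, the hormone form of vitamin D, was compared with untreated wild type cells across all genes. The comparison rests on 6 of the series' 12 libraries of total RNA, 3 untreated and 3 treated, chosen by the genotype and treatment in their labels. Both groups are labelled wild type and were grown in DMEM with fetal bovine serum. The labels describe replicates grown in a plate of wells and do not say whether they were independent cultures, so the p-values reflect only how these libraries spread, and that spread may be technical. The sources used here give neither the dose nor the vehicle. The remaining 6 libraries were of VDR knockout HaCaT cells with or without the same treatment. They entered the filter on low counts, the scaling of the libraries and the estimate of spread, and were not compared.

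The hormone binds the vitamin D receptor, VDR, a nuclear receptor that pairs with RXR and attaches to vitamin D response elements, typically 2 hexamer half-sites in direct repeat with 3 bases between them. Its textbook target is CYP24A1, the enzyme that degrades the hormone and so limits the signal. In the epidermis vitamin D signalling is known for its part in keratinocyte growth and differentiation, the lipid barrier and antimicrobial defence. HaCaT cells in growth medium resemble basal, dividing keratinocytes and make few cornification proteins.

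The 6 libraries held 11.49 to 13.89 M counts (M, 1e6 counts). Levels are given in CPM, counts per 1e6 counts of a library scaled by TMM. Markers of the labelled cell type were present, with KRT14 at a mean of 334 CPM, KRT17 at 580.5 CPM, TP63 at 669 CPM and SFN at 720.3 CPM in untreated cells. Of 25 markers of fibroblasts, melanocytes, endothelium, blood, immune and neural cells, 7 were in the table and 6 could be tested; the immune marker PTPRC and the endothelial markers PECAM1 and VWF were not among the 7. The 6 tested had a summed level of 27.9 to 38.0 CPM untreated and 31.4 to 41.9 CPM treated. Of these, CDH5 (0.82 ± 0.21) and CD68 (0.58 ± 0.16) were higher and MITF (-0.43 ± 0.14) lower with treatment on the log2 scale, 1 of the 6 was higher without untreated replicate 3 or without treated replicate 2, and the fall did not pass without untreated replicate 1, treated replicate 1 or treated replicate 3. COL1A1, a fibroblast collagen, was at 1.81, 1.74 and 17.4 CPM untreated and 10.0, 2.42 and 2.25 CPM treated and was highest in untreated replicate 3. The part of these cells in the results below was not tested. Untreated replicate 3 stood apart. On the first principal component of the 6 libraries it lay at -37.5, against -10.2 and -15.8 for the other untreated libraries and 19.0 to 24.6 for the treated ones. Across genes, which do not count as replicates, Spearman's rho was 0.9842 to 0.9941 between untreated libraries and 0.9952 to 0.9957 between treated ones.

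Of 14676 genes tested, 1688 (11.5%) were higher and 1914 (13.0%) lower after 8 h of hormone, at an adjusted p below 0.05 with edgeR's quasi-likelihood test and Benjamini-Hochberg adjustment. In RNA of whole cultures, fewer cells of a kind and less RNA per cell cannot be told apart. Most changes were small. The median log2 fold change was 0.42 among the genes called higher and -0.38 among those called lower, and only 72 genes (0.491%) rose and 62 (0.422%) fell at least 2-fold. Of the genes called at least 2-fold higher, 42 were protein coding and 10 antisense, and of those at least 2-fold lower, 20 were protein coding and 9 lincRNA genes. Levels of the 3 treated and 3 untreated libraries did not overlap in 3484 of the 3602 called genes, and in 39.2% of all genes tested. The counts depended on single libraries. Without treated replicate 3 there were 1010 genes higher and 1102 lower, and without treated replicate 1 there were 1119 and 1273. Without untreated replicate 2, 117 genes were at least 2-fold higher. Without untreated replicate 3 the counts were 1610 and 1800, of which 1320 and 1424 were shared with the full comparison. After a log2 fold change, ± gives the standard error derived from the test (n = 3 per group).

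**Figure D1:**
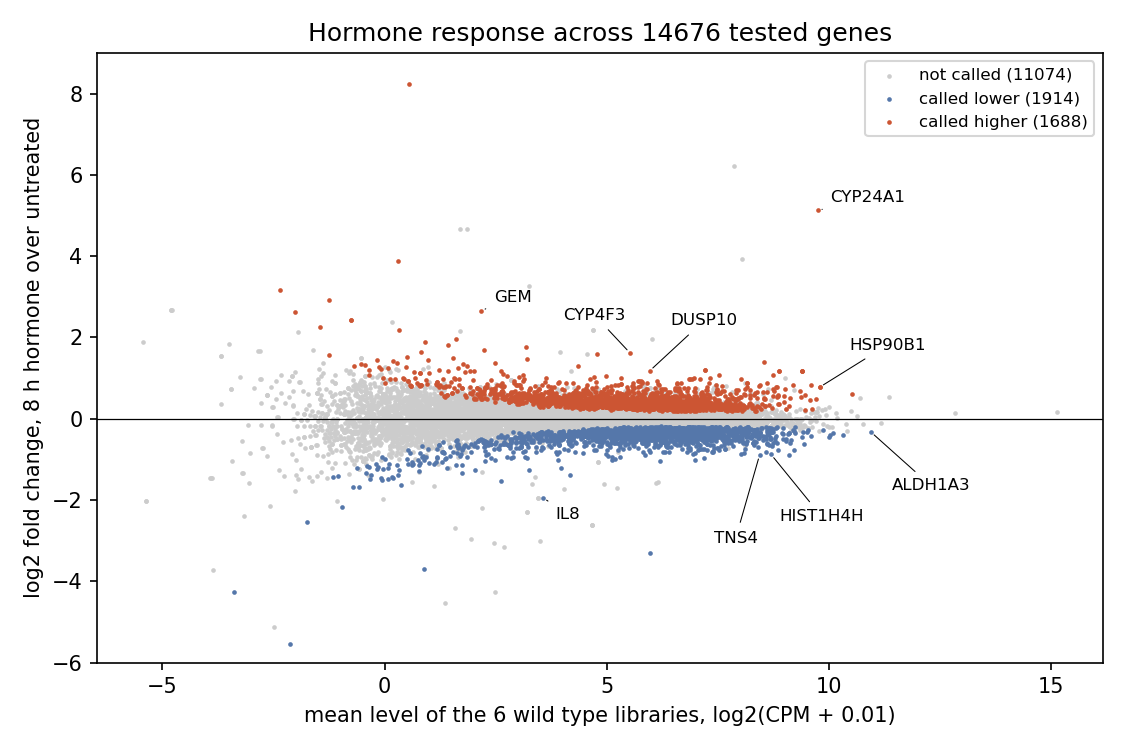
Log2 fold change (8 h hormone over untreated) against mean level, log2(CPM + 0.01), for the tested genes; orange points were called higher, blue points lower and grey points neither, and 6 genes with few or erratic counts lie outside the vertical axis. CYP24A1 stands apart at 5.13 among abundant called genes, while most called genes lie within 1 unit of 0.

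CYP24A1 was the gene with the smallest adjusted p of all 14676 tested (chromosome 20, 54153449 to 54173973, on GRCh38). It stood at 51.3, 46.3 and 46.4 CPM in the untreated libraries and at 1705, 1718 and 1606 CPM in the treated ones (log2 fold change 5.13 ± 0.16, adjusted p = 7.34e-11). The treated libraries differed little from each other, and every one was far above every untreated library. GEM, a small GTPase that binds calcium channel subunits (chromosome 8, 94249253 to 94262350), was near the bottom of the measured range in untreated cells, at 1.12, 1.37 and 1.18 CPM, and reached 7.49, 8.19 and 7.66 CPM (log2 fold change 2.66 ± 0.19, adjusted p = 3.32e-07). DUSP10, a phosphatase that switches off the stress kinases p38 and JNK (chromosome 1, 221701424 to 221742176), was already well expressed at 36.6, 36.0 and 42.2 CPM and rose to 86.2, 92.4 and 81.6 CPM (log2 fold change 1.18 ± 0.09, adjusted p = 4.35e-07). VDR itself (chromosome 12, 47841537 to 47943048) went the other way, from 103, 107 and 99.7 CPM to 74.6, 70.9 and 67.4 CPM (log2 fold change -0.54 ± 0.07, adjusted p = 7.74e-05). For all 4 genes the treated and untreated libraries did not overlap, as in 39.2% of all genes tested.

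Of 33 tested genes known from the literature as vitamin D targets, 17 (51.5%) were higher and 5 (15.2%) lower with the hormone. Among all genes tested, 11.5% were higher and 13.0% lower. The median log2 fold change was 0.33 against 0.00 over all genes tested. This list holds CYP24A1 and GEM and was chosen with earlier results of these data known, so its counts are not separate evidence. Besides the genes above, CLMN, a transmembrane calponin-like protein (chromosome 14, 95181940 to 95319906), rose from 30.6, 32.4 and 32.8 CPM to 55.6, 54.5 and 55.3 CPM (log2 fold change 0.79 ± 0.07, adjusted p = 3.76e-06). SERPINB1, an inhibitor of neutrophil proteases, rose by 0.90 ± 0.12, SLC37A2, a sugar phosphate transporter, by 0.56 ± 0.07, and EFL1 (listed as EFTUD1), a ribosome maturation GTPase, by 0.81 ± 0.09. THBD, thrombomodulin, rose by 0.68 ± 0.13 and IGFBP3, which binds insulin-like growth factors, by 0.69 ± 0.13. PTHLH, the parathyroid hormone-like protein that keratinocytes secrete, fell from 229, 221 and 245 CPM to 144, 157 and 138 CPM (log2 fold change -0.66 ± 0.07, adjusted p = 1.62e-05). HR, the nuclear corepressor of hair follicle biology that binds VDR (chromosome 8, 22114415 to 22133384), rose from 77.3, 77.4 and 62.1 CPM to 124, 113 and 121 CPM (log2 fold change 0.72 ± 0.10, adjusted p = 0.000103).

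The genes with the smallest adjusted p were not all classic targets. CYP4F3, which breaks down leukotriene B4 (chromosome 19, 15640897 to 15662825), was at 21.0, 25.0 and 21.6 CPM untreated and 68.9, 70.0 and 68.8 CPM treated (log2 fold change 1.62 ± 0.11, adjusted p = 2.49e-07). The 3 treated values lie within about 1 CPM of each other. KDM1A, the histone demethylase LSD1, rose from 181, 180.1 and 163 CPM to 343, 326 and 365 CPM (log2 fold change 0.98 ± 0.08, adjusted p = 1.58e-06), and COL16A1, a collagen that associates with fibrils, from 98.0, 96.2 and 82.6 CPM to 189, 171 and 184 CPM (log2 fold change 0.97 ± 0.08, adjusted p = 1.58e-06). MELTF (listed as MFI2), the iron-binding surface protein melanotransferrin, rose from 299, 294 and 234 CPM to 574, 595 and 576 CPM (log2 fold change 1.08 ± 0.09, adjusted p = 1.58e-06). In each of these 3 genes untreated replicate 3 was the lowest untreated library. The groups did not overlap, which the rule that chose these genes required. CPA6, a secreted carboxypeptidase, rose by 1.48 ± 0.13, the antiviral ubiquitin ligase TRIM56 by 0.72 ± 0.07, the synaptotagmin gene SYT8 by 0.93 ± 0.09, and CREG2 by 0.88 ± 0.08. NUDT18, which hydrolyses oxidised nucleotides, rose by 0.93 ± 0.09.

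Of the called coding genes whose mean reached 1 CPM in either group, the largest folds after CYP24A1 and GEM were in MAB21L4 (listed as C2orf54), CEACAM6 and DHRS9. MAB21L4 was at 2.16, 0.731 and 0.761 CPM untreated and 5.36, 5.15 and 3.91 CPM treated (log2 fold change 1.97 ± 0.29, adjusted p = 0.000255). CEACAM6, a glycoprotein of epithelial surfaces, was at 0.948, 1.01 and 0.423 CPM and 3.78, 2.34 and 2.63 CPM (log2 fold change 1.88 ± 0.41, adjusted p = 0.00381). DHRS9, a dehydrogenase that acts on retinoids, was at 0.862, 1.46 and 1.27 CPM and 4.10, 3.98 and 4.51 CPM (log2 fold change 1.81 ± 0.22, adjusted p = 3.9e-05). These genes were scarce, and in none did the groups overlap, as in 39.2% of all genes tested. PRR5L, a binding partner of the kinase complex mTORC2, rose by 1.78 ± 0.19, the semaphorin gene SEMA6D by 1.69 ± 0.21, the drug efflux pump gene ABCB1 by 1.64 ± 0.28, PRKG2, a cyclic GMP-dependent kinase, by 1.44 ± 0.26, and SIRPA, the receptor for the surface protein CD47, by 1.53 ± 0.38. ALOX5, the lipoxygenase that starts leukotriene synthesis, rose from a mean of 11.8 to 29.1 CPM (log2 fold change 1.30 ± 0.14, adjusted p = 1.62e-05). AOC1 (listed as ABP1), which oxidises histamine and polyamines, rose by 1.49 ± 0.31, and CTSF, a lysosomal cysteine protease, by 1.27 ± 0.39 (not called with untreated replicate 2 or treated replicate 1 or 3 left out). IL1RL1, the receptor of interleukin-33, rose by 1.59 ± 0.48, but its libraries spread widely, at 22.1, 12.2 and 6.76 CPM and 39.0, 64.9 and 19.8 CPM, and the groups overlapped. The call was lost without untreated replicate 2 or 3 or treated replicate 1 or 2 (adjusted p = 0.0902 to 0.111).

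The window around the start of each gene, 250 bases before to 50 after in RefSeq's annotation of GRCh38.p14, was searched for the response element. The search took 2 half-sites, each reading A or G, then G, then G or T, then T, then C or G, then A, with 3 bases of any kind between them, on both strands. Allowing 1 mismatch in the 12 half-site bases, 4 of the 30 coding genes at least 2-fold higher that had an entry held a match (13.3%), against 0 of 19 at least 2-fold lower, 5.52% of all coding genes tested and 5.29% of all 35116 windows. Among all genes called higher the share was 5.05%, and among those called lower 5.95%. A gene with several annotated starts has more windows to match. The 4 matched genes, which include FOSL2, a subunit of the transcription factor AP-1, are shown 5′ to 3′ on the gene's strand with up to 30 bases each and the 15-base match in capitals, to show the letters found. CYP24A1, GEM and CPA6 had no entry and were not searched.
CEACAM6: gcacccaTGACCCACGTGACCCtgggaaat
FOSL2: agtctggGGTTGACGTGAGTGAatccacat
MAB21L4: cttaaatAGTTCAGCTATTTCAcctgccac
CTSF: aacaagcACGTGATAGAGGTCAgtgactag
The match of CEACAM6 (chr19:41755473-41755502, plus strand of the genome) lay on the opposite strand, had no mismatch and covered bases 50 to 36 before the start. An exact match was in 0.251% of all windows. That of FOSL2 (chr2:28392782-28392811, plus strand) lay 69 to 55 before the start with 1 mismatch. That of CTSF (chr11:66568706-66568735, minus strand) lay 122 to 108 before it, and that of MAB21L4 (chr2:240896157-240896186, minus strand) 23 to 9 before it, also with 1 mismatch each, and MAB21L4 had a second, overlapping match on the opposite strand. A match is a description of letters and not a shown binding site. FOSL2 itself rose from 119, 136 and 97.2 CPM to 256, 230.2 and 263 CPM (log2 fold change 1.09 ± 0.12, adjusted p = 3.33e-05).

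**Figure D2:**
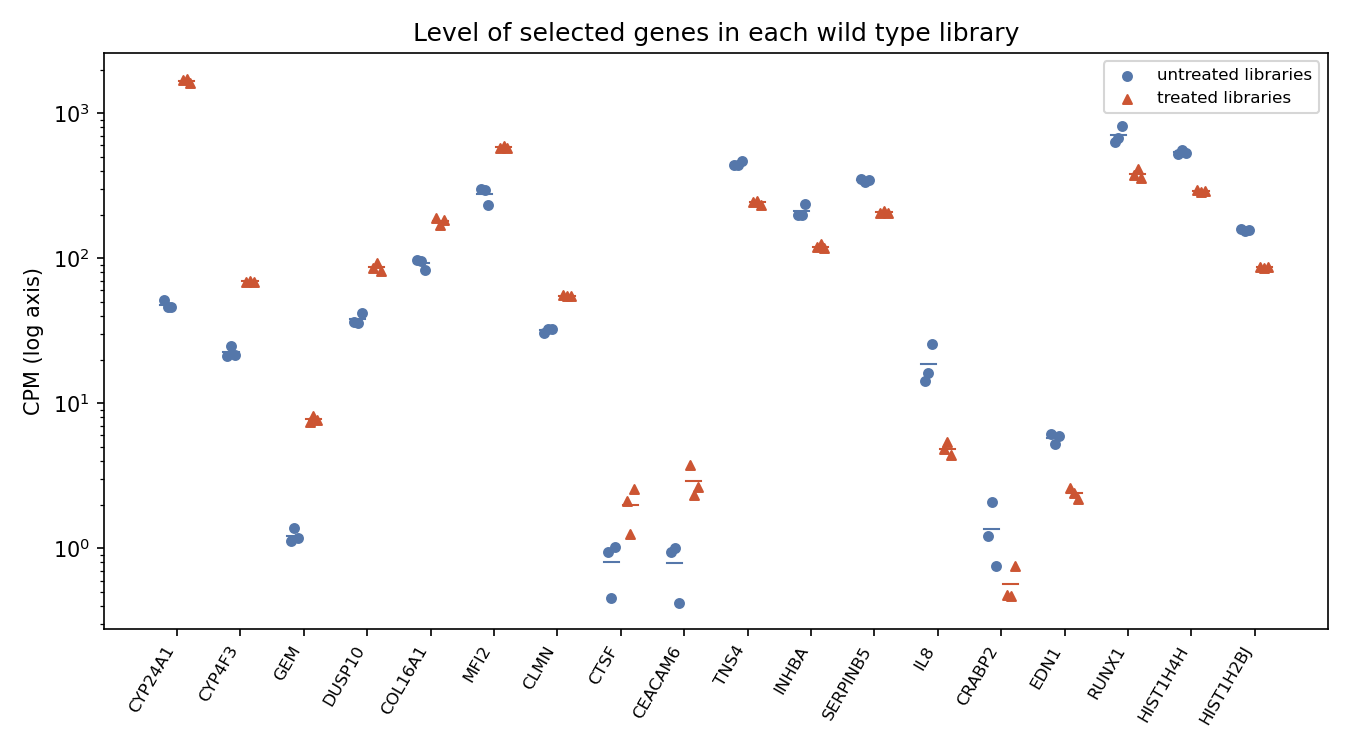
CPM (log axis) of 18 genes in each of the 6 wild type libraries; circles are untreated and triangles treated libraries, in the order replicate 1 to 3, and short lines are group means. CYP24A1 rises from near 48 to near 1676 CPM. In all 18 genes shown the treated and untreated libraries do not overlap, against 39.2% of all genes tested. Many of the 18 were chosen by a rule that required this.

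The genes that lost most RNA in absolute terms were abundant ones. ALDH1A3, which makes retinoic acid, fell from 2109, 2186 and 2296 CPM to 1688, 1868 and 1691 CPM (log2 fold change -0.33 ± 0.07, adjusted p = 0.00316), and ANXA2, a calcium-dependent membrane-binding protein, from 1197, 1179.9 and 1148 CPM to 862, 872 and 856 CPM (log2 fold change -0.44 ± 0.07, adjusted p = 0.000505). RUNX1, a transcription factor, fell from 634, 680.0 and 822 CPM to 375, 415 and 358 CPM (log2 fold change -0.90 ± 0.10, adjusted p = 1.62e-05). CDH13, a cadherin without a cytoplasmic tail, fell by 0.77 on the log2 scale, PATJ (listed as INADL), a polarity scaffold, by 0.78, and ADK, adenosine kinase, by 0.61. RUNX1, CDH13, PATJ and ADK span 1220, 1170, 436 and 558 kb of the chromosome. Of coding genes in the longest span bin described below, 32.1% were lower. ALDH1A3 and ANXA2 are shorter, at 38.9 and 55.8 kb. In 10 of the 12 genes with the largest falls in CPM untreated replicate 3 was the untreated library farthest from the treated ones, and in 11 of the 12 largest rises as well. Without it RUNX1 changed by -0.78, CDH13 by -0.69, PATJ (INADL) by -0.65 and ADK by -0.48. Among the largest rises, HSP90B1 kept 0.70 of its 0.78, AHNAK, a giant scaffold protein, had 0.48 in place of 0.60, and SRRM2, a splicing factor, did not pass (0.59, adjusted p = 0.0877), nor did it without untreated replicate 1 or any treated library. The small Cajal body RNA genes SCARNA2 (1.17 ± 0.14) and SCARNA17 (1.17 ± 0.11) were also among the largest rises. SCARNA17 and SCARNA18 had equal counts in every library, and MIR3652, which lies within HSP90B1, had nearly the counts of that gene, so these are not independent values.

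TNS4, a focal adhesion protein of the tensin family (chromosome 17, 40475828 to 40501597), had the smallest adjusted p among genes that fell, from 443, 438 and 471 CPM to 245, 249 and 234 CPM (log2 fold change -0.89 ± 0.07, adjusted p = 5.13e-07). SERPINB5, the epithelial serpin maspin, fell from 355, 334 and 349 CPM to 205, 212 and 204 CPM (log2 fold change -0.74 ± 0.07, adjusted p = 3.76e-06), and INHBA, which encodes the subunit of activin A, from 198, 199.9 and 237 CPM to 119, 125 and 118 CPM (log2 fold change -0.81 ± 0.08, adjusted p = 6.56e-06). Each of these changes was several times the spread within its groups. TM4SF1, a tetraspanin-like surface protein, fell from a mean of 25.8 to 9.95 CPM (log2 fold change -1.38 ± 0.14, adjusted p = 1.38e-05). ATP8A2, a lipid flippase, fell by 1.02, TMEM45B by 0.77 and EDN1, the vasoconstrictor peptide endothelin-1 that keratinocytes also secrete, by 1.26. CRABP2, which delivers retinoic acid to its receptor, was scarce at 1.21, 2.10 and 0.761 CPM and lower at 0.473, 0.468 and 0.751 CPM (log2 fold change -1.23 ± 0.41, adjusted p = 0.0387), a call lost without untreated replicate 1 or 2 or any treated library (adjusted p = 0.0568 to 0.21; -0.78 without untreated replicate 2). KMO and KYNU, enzymes of the kynurenine pathway of tryptophan breakdown, fell (-1.22 ± 0.35 and -1.16 ± 0.39), at levels near 1 CPM. KYNU did not pass with untreated replicate 3 left out (-0.69, adjusted p = 0.317), nor with treated replicate 1 or 2 left out. KMO did not pass with untreated replicate 1 or treated replicate 1 or 3 left out (adjusted p = 0.0725 to 0.0937). Of the called coding genes whose mean reached 1 CPM in either group, EPN2 had the largest fall (-3.31 ± 0.89, not called without untreated replicate 2 or any treated library), at 95.1, 152 and 94.1 CPM and 9.70, 12.3 and 12.2 CPM.

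Of 47 chaperones and oxidative folding enzymes of the endoplasmic reticulum (ER) tested, 28 were higher, 2 lower (1 without treated replicate 1 or 3) and 17 not called, with a median log2 fold change of 0.28. HSP90B1, the ER member of the HSP90 family, rose from 708, 678 and 574 CPM to 1059, 1141 and 1164 CPM (log2 fold change 0.78 ± 0.09, adjusted p = 2.93e-05). The disulfide isomerases PDIA3 (0.72 ± 0.11) and PDIA4 (0.62 ± 0.09), the calcium-binding lectin chaperones CANX (0.54 ± 0.09) and CALR (0.67 ± 0.13), and the cochaperone DNAJB11 (0.46 ± 0.07) rose too. Genes of the neighbouring steps had calls in both directions, at shares not far from the 11.5% and 13.0% of all genes. Of 47 genes of ER entry and N-glycosylation 7 (14.9%) were higher and 8 (17.0%) lower. The translocon subunit SEC61G (-0.57 ± 0.08) was among those lower and the oligosaccharyltransferase subunit DDOST (0.46 ± 0.11) among those higher. Leaving out 1 library gave as few as 3 higher (without treated replicate 3; 4 without treated replicate 1) and 3 lower (without treated replicate 1 or 3; 5 without untreated replicate 3). Of 48 genes of transport between ER and Golgi 7 (14.6%) were higher and 9 (18.8%) lower (4 and 5 without treated replicate 3). The coat subunits COPG2 (-0.59 ± 0.10) and SEC13 (-0.57 ± 0.10) were lower and the cargo receptor TMED9 (0.50 ± 0.11) higher. The authors' deposited table of terms for genes higher with treatment lists 46 genes of the ER lumen (adjusted p = 6.62e-12).

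Of 50 lysosomal genes tested, 22 (44.0%) were higher, 4 (8.0%) lower and 24 not called, with a median of 0.25. Over all genes tested, the shares were 11.5% higher and 13.0% lower. The lower count was 1 without treated replicate 3 and 2 without untreated replicate 1, treated replicate 1 or treated replicate 2. ARSA, an enzyme that desulfates sulfatide, rose from 21.6, 22.7 and 16.1 CPM to 35.4, 32.5 and 35.2 CPM (log2 fold change 0.77 ± 0.12, adjusted p = 0.000261). LAMP1, the major lysosomal membrane glycoprotein, rose from 149, 149.9 and 107 CPM to 207, 209 and 226 CPM (log2 fold change 0.66 ± 0.10, adjusted p = 0.000331). The groups did not overlap in either gene, as in 39.2% of all genes tested. PPT2 (0.57 ± 0.09), a thioesterase, and CTSA (0.49 ± 0.08), a carboxypeptidase, rose with them. In the authors' deposited table of terms for genes higher with treatment, 24 genes were of the primary lysosome (adjusted p = 0.00053) and 23 of the melanosome, a lysosome-related organelle (adjusted p = 1.27e-05).

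At the cell surface, of 48 genes of cell junctions tested, 19 (39.6%) were higher, 2 (4.17%) lower and 27 not called, with a median of 0.18. Without treated replicate 3, 11 were higher. Among all genes tested, 11.5% were higher and 13.0% lower. The cadherin gene CDH1 rose from 111, 104 and 79.2 CPM to 156, 158 and 146 CPM (log2 fold change 0.65 ± 0.10, adjusted p = 0.000425), and CDH3, P-cadherin, from 276, 281 and 211 CPM to 389.8, 408 and 387 CPM (log2 fold change 0.63 ± 0.09, adjusted p = 0.000241). The groups did not overlap in either, as in 39.2% of all genes tested. EPCAM, an epithelial adhesion molecule, rose by 0.54 ± 0.11 and ESRP2, an epithelial splicing regulator, by 0.41 ± 0.08, while CTNNA1, which ties cadherins to actin, fell by 0.47. Of 49 genes of basal adhesion and the basement membrane, 11 (22.4%) were higher and 5 (10.2%) lower, with a median of 0.09. Laminin beta 2 (LAMB2, 0.56 ± 0.08), fibronectin (FN1, 0.73 ± 0.11), tenascin C (TNC, 0.66 ± 0.10) and the integrin subunit gene ITGAV (0.56 ± 0.10) rose beside the fall of TNS4. The authors' deposited table lists 42 genes of extracellular matrix organization among those higher with treatment (adjusted p = 1.66e-06) and 7 of planar cell polarity in neural tube closure (adjusted p = 0.00177). Of 37 semaphorin, ephrin and guidance genes 11 (29.7%) were higher and 4 (10.8%) lower. Without treated replicate 1, 6 were higher, and without treated replicate 3, 5 were higher and 2 lower. SEMA6D and SEMA3B (1.36 ± 0.29) led upward and the semaphorin coreceptor NRP2 (-0.39 ± 0.08) and SEMA3D (-0.40 ± 0.09) downward.

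Several secreted proteases rose. Of 27 serine proteases tested, 12 were higher and 4 lower, with a median of 0.30. KLK5, a kallikrein known for its part in shedding of the outer epidermis, rose from 80.9, 81.5 and 60.6 CPM to 116, 117 and 124 CPM (log2 fold change 0.68 ± 0.09, adjusted p = 0.000158). C1R, a protease of the complement cascade, rose by 1.00 ± 0.18 and PRSS22 by 0.89 ± 0.18, while PCSK6, a proprotein convertase, fell by 0.58 and TMPRSS4, a transmembrane protease, by 0.42. Of 28 protease inhibitors 4 (14.3%) were higher (7 without untreated replicate 1) and 3 (10.7%) lower, beside 11.5% and 13.0% of all genes. The inhibitors of epithelial proteases SPINT1 (0.76 ± 0.11) and SPINT2 (0.52 ± 0.11) were among the higher ones, and SERPINB8 (-0.48 ± 0.09) fell beside SERPINB5.

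Few differentiation genes passed the test after 8 h. Of 25 tested genes of the cornified envelope and differentiation, 2 were higher and 3 lower, shares no larger than the 11.5% and 13.0% of all genes. Those that passed included PRDM1, a transcriptional repressor (-1.20 ± 0.19), SCEL, sciellin (-0.82 ± 0.16), the epithelial factor EHF (-0.44 ± 0.09) and EVPL, envoplakin (0.19 ± 0.07, not called without untreated replicate 1 or 2 or treated replicate 1 or 3). Without untreated replicate 3, 7 were lower, and 1 was higher when untreated replicate 1 or 2 or treated replicate 1 or 3 was left out. Of 16 keratin genes 0 were higher and 1 was lower (edgeR), KRT86 (-0.64 ± 0.17), which did not pass without untreated replicate 1, treated replicate 1 or treated replicate 3. Without untreated replicate 3, 4 keratins were lower. KRT14 stood at 367, 365 and 271 CPM untreated and 295, 255 and 299 CPM treated (log2 fold change -0.24 ± 0.10, adjusted p = 0.087), and was called lower without untreated replicate 3 (-0.36, adjusted p = 0.000587). Of 10 keratinocyte markers 4 were higher and 1 was lower (4 lower without untreated replicate 3). The one that fell was TP63, the factor of basal epidermal identity, from 597, 596 and 813 CPM to 441, 495 and 456 CPM (log2 fold change -0.53 ± 0.11, adjusted p = 0.00261), while DSP, desmoplakin, rose by 0.98 ± 0.17 and DSG3, a desmosomal cadherin, by 0.33 ± 0.09 (not called without treated replicate 2).

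Of 51 cytokine, chemokine and NF-kB genes 9 (17.6%) were higher (5 without treated replicate 3) and 13 (25.5%) lower. Both shares were above the 11.5% and 13.0% of all genes. CXCL8 (listed as IL8), a chemokine for neutrophils, fell from 14.3, 16.3 and 25.8 CPM to 4.81, 5.38 and 4.43 CPM (log2 fold change -1.95 ± 0.20, adjusted p = 2.93e-05). The untreated libraries varied among themselves, and the lowest of them was well above the highest treated one. IL1B fell from a mean of 11.7 to 6.13 CPM (log2 fold change -0.94 ± 0.14, adjusted p = 0.000236), IL1A by 1.26, IL18 by 0.46 and the chemokine CXCL1 by 0.63. PTGS2, the inducible cyclooxygenase, rose by 0.88 ± 0.15. Of 51 interferon response genes 2 (3.92%) were higher and 13 (25.5%) lower, with a median of -0.15. The higher count was 1 without untreated replicate 1 or treated replicate 1 or 3, and the lower count 8 without treated replicate 2. Those that fell included the RNA-sensing kinase EIF2AK2 (-0.46 ± 0.08), IFIT2 (-0.42 ± 0.09), IFIT3 (-0.36 ± 0.08), the helicase DDX60 (-0.46 ± 0.10, -0.30 without untreated replicate 3) and the antiviral GTPase MX2 (-1.14 ± 0.27), while LGALS3BP (0.67 ± 0.14) rose. Of 29 antigen presentation genes 11 (37.9%) were higher and 2 (6.9%) lower, with a median of 0.28. Without treated replicate 1 or 2, 7 were higher, and without treated replicate 2, 1 was lower. TAPBP, tapasin, which loads peptides onto class I molecules, rose from 119, 114 and 93.6 CPM to 162, 171 and 175 CPM (log2 fold change 0.64 ± 0.08, adjusted p = 9.2e-05), and the peptide transporter genes TAP1 (0.61 ± 0.13) and TAP2 (0.54 ± 0.08) rose. PDIA3 and CALR, also counted among the ER chaperones, are members of this list too. The authors' deposited table of terms for genes lower with treatment lists 13 genes of granulocyte migration (adjusted p = 0.0298).

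Calls in the signalling lists went both ways. Of 54 growth factor and MAPK feedback genes 7 were higher and 10 lower (17 lower without untreated replicate 3), 13.0% and 18.5% beside the 11.5% and 13.0% of all genes. DUSP6, the phosphatase that switches off ERK, fell from 37.4, 44.9 and 41.0 CPM to 23.7, 23.0 and 20.5 CPM (log2 fold change -0.87 ± 0.10, adjusted p = 2.64e-05), opposite to DUSP10. ZFP36, which destabilises cytokine messages, rose by 0.61 ± 0.08 and IER3, an immediate early gene, fell by 0.68. In the authors' deposited table, negative regulation of ERBB signalling holds 14 genes lower with treatment (adjusted p = 0.00343). Of 48 TGF-beta, BMP and YAP genes 4 were higher (8.33%) and 8 lower (16.7%; 5 without treated replicate 1 or 3). TGFB2, a TGF-beta ligand, rose from 35.2, 30.9 and 38.8 CPM to 57.6, 66.4 and 58.4 CPM (log2 fold change 0.80 ± 0.10, adjusted p = 3.9e-05), while INHBA, the YAP target ANKRD1 (-1.54 ± 0.23) and the decoy receptor BAMBI (-0.75 ± 0.12) fell. Of 41 Wnt and Notch genes 9 were higher (4 without treated replicate 3) and 4 lower, with the Wnt receptors FZD1 (1.09 ± 0.21), FZD2 (1.06 ± 0.20) and LRP6 (0.35 ± 0.07) and the Notch ligand DLL1 (0.50 ± 0.10) higher and the Notch coactivator MAML2 (-0.63 ± 0.08) lower. Of 48 retinoid and nuclear receptor genes 6 (12.5%) were higher and 9 (18.8%) lower (5 lower without treated replicate 3). Among them was PPARG (-0.35 ± 0.08), a lipid-sensing receptor, beside DHRS9, HR and ALDH1A3 above.

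Of the 38 lists, histone genes had the largest share of members lower, 70.5%. Of 78 tested, 55 were lower and 1 was higher, with a median of -0.58. The HIST-named genes of the histone clusters and the other histone genes differed in these counts. Among the clustered genes 17 of 18 of H2B, 14 of 17 of H2A, 9 of 13 of H3, 9 of 12 of H4 and 5 of 6 of H1 were lower, with medians of -0.38 for H1 to -0.77 for H4. Of the 12 remaining entries, which include the replacement variants made outside S phase, 1 was lower, H3F3A (-0.49 ± 0.09), and 1 higher, the linker histone gene H1FX (0.38 ± 0.11, 0.22 with untreated replicate 3 left out, not called without treated replicate 1, 2 or 3), with a median of -0.02. HIST1H4H stood at 521, 558 and 534 CPM untreated and 297, 288 and 292 CPM treated (log2 fold change -0.88 ± 0.07, adjusted p = 1.58e-06). HIST1H2BJ fell from 159, 155 and 157 CPM to 87.5, 85.9 and 86.4 CPM (log2 fold change -0.86 ± 0.07, adjusted p = 1.58e-06). The libraries of a group lay close together, and untreated replicate 3 did not stand out in either gene. Summed over the list, the level was 12975, 12871 and 11095 CPM untreated and 8533, 8529 and 8089 CPM treated. Histone genes are near-identical copies, so reads may be shared among them and single members are uncertain. The authors' deposited table lists 24 nucleosome genes among those lower with treatment (adjusted p = 4.13e-12).

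Of 73 genes of G1 and S phase 4 (5.48%) were higher and 20 (27.4%) lower, with a median of -0.11. Over all genes tested, the shares were 11.5% and 13.0%. The lower count was 13, 12 and 9 without treated replicates 1, 2 and 3, and the higher count was 7 without untreated replicate 3 and 2 without treated replicate 3. PRIM2, a subunit of the primase that starts DNA strands, fell from 136, 133 and 174 CPM to 90.7, 89.7 and 79.4 CPM (log2 fold change -0.77 ± 0.10, adjusted p = 8.81e-05), POLA1, its polymerase partner, by 0.42 and CDC45, part of the replicative helicase, by 0.35. CDKN1A, which encodes the cell cycle inhibitor p21, fell by 0.43 too, and E2F1, the S phase transcription factor, rose by 0.38 ± 0.08. Of 69 genes of G2 and mitosis 6 (8.7%) were higher (3 without treated replicate 3) and 14 (20.3%) lower. The cyclin gene CCNB2 (-0.59 ± 0.10) and the kinase gene CDK1 (-0.49 ± 0.08) were lower and the mitotic kinase gene PLK1 (0.42 ± 0.08) higher. Of 51 DNA repair and damage response genes 2 (3.92%) were higher and 9 (17.6%) lower. Those lower included the end-joining genes XRCC5 (-0.44 ± 0.09) and XRCC6 (-0.40 ± 0.07).

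Of 81 ribosome biogenesis genes 4 (4.94%) were higher and 26 (32.1%) lower, with a median of -0.14. Among all genes tested, 11.5% were higher and 13.0% lower. The shares lower in the next 3 lists were 31.6% (mitochondrial ribosome), 35.1% (proteasome) and 24.5% (tRNA synthetases and amino acid stress). Without treated replicate 1, 2 or 3, 1 was higher, and 16 and 14 were lower without treated replicates 1 and 3. RPF2, a factor of large subunit assembly, fell from 125, 121 and 145 CPM to 78.1, 76.2 and 78.9 CPM (log2 fold change -0.75 ± 0.09, adjusted p = 6.69e-05), and POLR3B, a subunit of RNA polymerase III, by 0.65. Of 76 mitochondrial ribosome genes 0 were higher (edgeR; 1 without untreated replicate 2 or treated replicate 2) and 24 lower, such as MRPL13 (-0.77 ± 0.11) and MRPL48 (-0.58 ± 0.08). Of 37 proteasome genes 13 were lower, such as the core subunit PSMB7 (-0.52 ± 0.07) and the deubiquitinating subunit PSMD14 (-0.61 ± 0.09), and 1 was higher, PSMC5 (0.31 ± 0.11, not called without untreated replicate 3, at 0.19, or any treated library). Without untreated replicate 2, 2 were higher. Of 49 tRNA synthetase and amino acid stress genes 3 were higher (5 and 6 without untreated replicates 1 and 2) and 12 lower, such as the synthetase genes KARS (-0.52 ± 0.07) and EPRS (-0.50 ± 0.09) and the serine synthesis gene PSAT1 (-0.45 ± 0.07).

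Cytosolic ribosomal protein genes depended on which untreated library was used. Of 81 tested, 0 were higher and 32 (39.5%) lower (edgeR), with a median of -0.23. The share lower was 13.0% of all genes tested, 23.1% of the respiratory chain genes and 21.4% of the actin and contractile genes below. Without untreated replicate 3, 52 were lower, and the count was 19 without untreated replicate 1 and 19, 20 and 18 without treated replicates 1, 2 and 3. The summed level was 20955 and 20154 CPM in untreated replicates 1 and 2, but 16260 CPM in untreated replicate 3, against 16451 to 16787 CPM in the treated libraries. RPL38 (-0.60 ± 0.09) and RPS12 (-0.47 ± 0.07) had the smallest adjusted p. Of 78 respiratory chain genes 18 were lower and 1 higher, NDUFB1 (0.24 ± 0.06). Without untreated replicate 3, 34 were lower, and the count was 11 without untreated replicate 1 and 11 and 8 without treated replicates 1 and 3. Without untreated replicates 1 and 2, 3 and 4 were higher. NDUFS4 (-0.42 ± 0.07) and NDUFA12 (-0.54 ± 0.09), subunits of complex I, led this list. Of 56 actin and contractile genes 6 were higher (3 and 2 without treated replicates 1 and 3) and 12 lower (27 without untreated replicate 3, 6 without treated replicate 3). Filamin A (FLNA, 0.68 ± 0.11), which crosslinks actin, was higher and RND3 (-0.74 ± 0.12), which opposes RhoA, was lower.

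Of 46 genes of calcium handling 13 (28.3%) were higher and 5 (10.9%) lower, with a median of 0.15. The lower count was 8, 2 and 3 without untreated replicate 3, treated replicate 1 and treated replicate 3. Among all genes tested, 11.5% were higher and 13.0% lower. Several of the calcium handling genes that rose encode calcium-binding proteins of the ER. RCN1, reticulocalbin, rose from 130.4, 127 and 90.0 CPM to 196, 178 and 194 CPM (log2 fold change 0.71 ± 0.11, adjusted p = 0.000279), ATP2A2, the ER calcium pump SERCA2, by 0.39 ± 0.07 and RCN2 by 0.41 ± 0.08. The authors' deposited table lists 54 calcium ion binding genes higher with treatment (adjusted p = 3.26e-05). Of 185 solute carriers 44 (23.8%) were higher (28 without treated replicate 3) and 19 (10.3%) lower (10 and 12 without treated replicates 1 and 3). Those higher included the zinc transporter SLC39A7 (0.60 ± 0.10) and the folate transporter SLC46A1 (0.71 ± 0.12).

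Metabolic lists were mixed. Of 53 cholesterol and fatty acid synthesis genes 6 were higher (3 without treated replicate 2 or 3) and 5 lower (2 without treated replicate 1, 3 without treated replicate 2 or 3). These were 11.3% and 9.43%, under the 11.5% and 13.0% of all genes. The sterol synthesis genes SQLE (0.54 ± 0.11) and EBP (0.63 ± 0.12) were among those higher. Of 41 hypoxia and glycolysis genes 7 were lower (12 without untreated replicate 3, 4 without treated replicate 3), such as the peptide hormone gene ADM (-0.57 ± 0.10) and GPI (-0.43 ± 0.08), and 1 higher, ERO1A (listed as ERO1L), an ER oxidase (0.60 ± 0.18), which did not pass without untreated replicate 1 or 3 or any treated library. Of 43 NRF2 and metallothionein genes 5 were higher and 8 lower (5 without untreated replicate 1 or treated replicate 1, 4 without untreated replicate 2 or treated replicate 3). FTH1, the ferritin heavy chain that stores iron, rose from 348, 328 and 284 CPM to 534, 533 and 527 CPM (log2 fold change 0.73 ± 0.10, adjusted p = 0.000138), and the cystine transporter gene SLC7A11 fell by 0.64 (-0.40 without untreated replicate 3). Of 425 ZNF genes 29 were higher and 28 lower, 6.82% and 6.59%, both under the shares of all genes. Leaving out treated replicate 1 or 3 gave 19 and 16 higher and 16 and 14 lower, and leaving out untreated replicate 3 gave 15 lower.

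**Figure D3:**
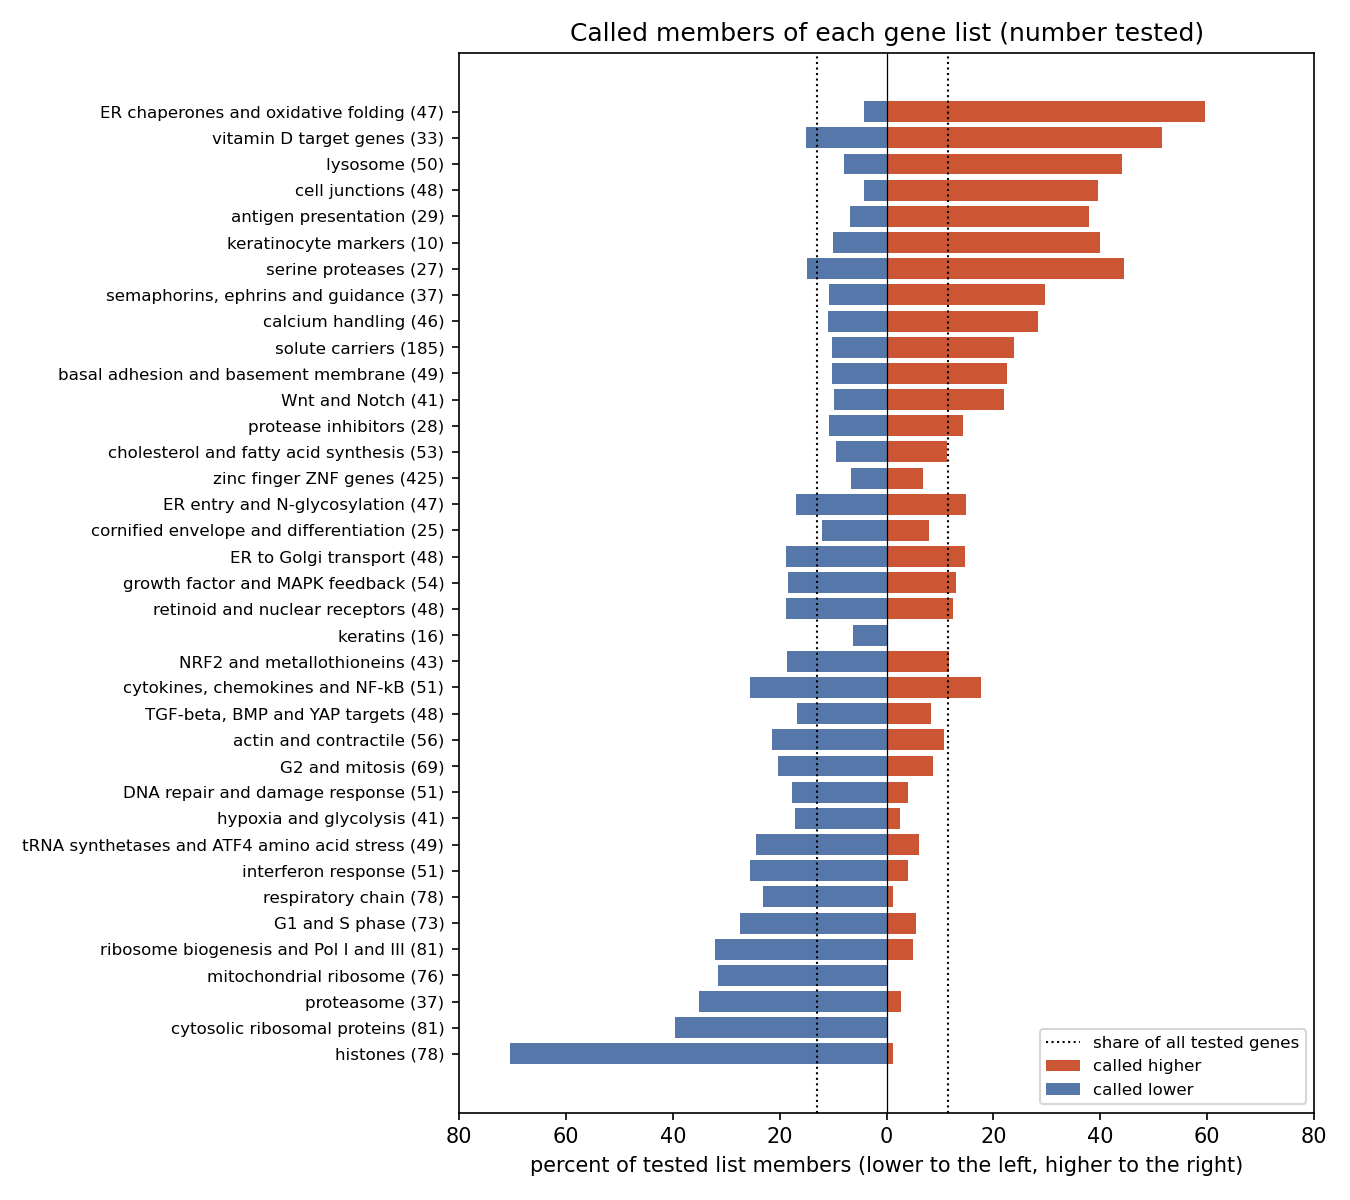
Percent of the tested members of each list called higher (orange, to the right) or lower (blue, to the left), with the number tested in brackets and dotted lines at the 11.5% and 13.0% of all tested genes. Lists are ordered by the difference of the 2 shares, from ER chaperones, with 59.6% higher, to histones, with 70.5% lower.

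Across coding genes the response followed the length of the gene on the chromosome. Coding genes with a mean of at least 1 CPM were divided into 8 equal bins by span, from start to end with introns. In the shortest bin, with a median span of 4.40 kb, 336 of 1440 genes were higher and 93 lower, with a median log2 fold change of 0.13. In the longest bin, with a median of 217 kb, 64 of 1439 were higher and 462 lower, with a median of -0.16. The untreated libraries differed in this trend. On a scale of log2(CPM + 1), the longest bin stood above the shortest by 0.43 in untreated replicate 3, by 0.00 and 0.02 in untreated replicates 1 and 2, and by -0.11, -0.15 and -0.16 in the treated libraries. Without untreated replicate 3 the medians were 0.06 in the shortest and -0.10 in the longest bin, with 266 genes higher and 176 lower in the shortest bin and 97 higher and 371 lower in the longest. Falls named above in genes this long included MAML2 (367 kb), PRIM2 (332 kb), CTNNA1 (324 kb), POLA1 (303 kb), TP63 (266 kb) and PCSK6 (228 kb). Rises in genes this long included SEMA6D (590 kb), CPA6 (324 kb) and ABCB1 (210 kb). Binned by exonic length, the medians ran only from -0.04 to 0.02. Of the 1688 genes called higher and the 1914 called lower, untreated replicate 3 was the untreated library farthest from the treated ones in 70.3% and 68.2%. Its part in the results was measured only by leaving it out.

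**Figure D4:**
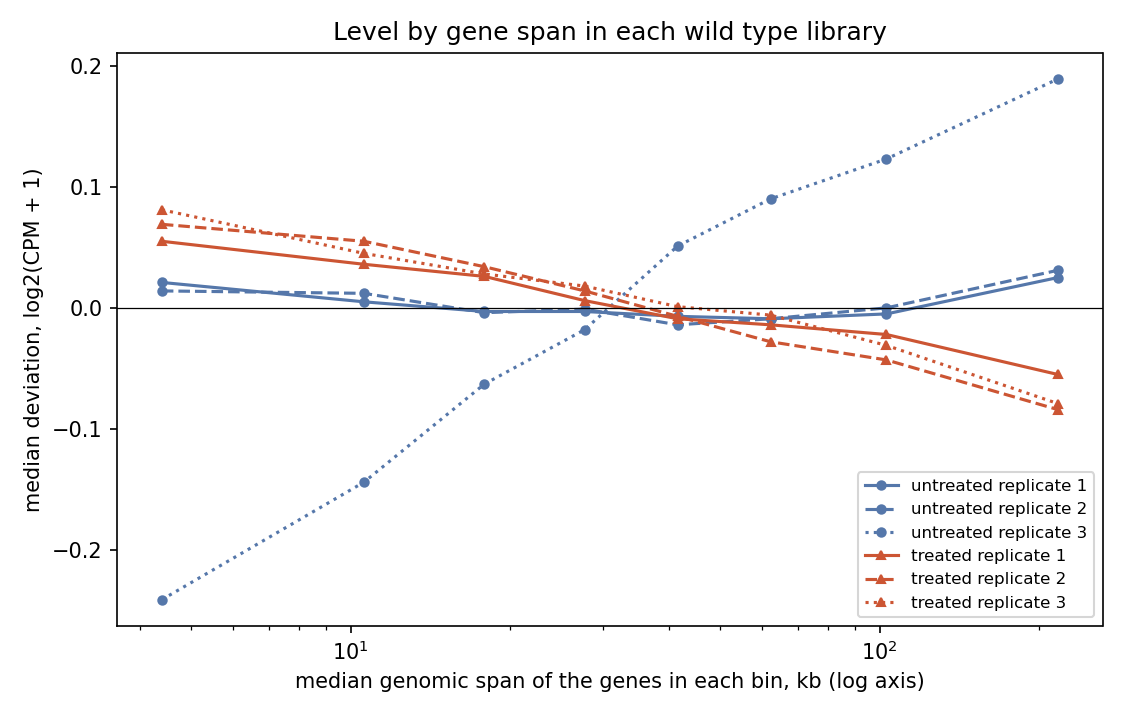
Median deviation of log2(CPM + 1) from each gene's mean over the 6 libraries, for 8 bins of coding genes by genomic span (kb, log axis), with one line per library. Untreated replicate 3 climbs by 0.43 from the shortest to the longest bin, while the treated libraries fall by 0.11 to 0.16.

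With the median of genes of similar span taken off, the median was 0.27 for ER chaperones (0.28 before), 0.25 for lysosomal genes (0.25), 0.39 for vitamin D targets (0.33), 0.21 for antigen presentation (0.28), and -0.33 for cytosolic ribosomal proteins (-0.23). It moved by more than 1.5 times in cornified envelope genes (-0.29 from -0.13), keratinocyte markers (-0.26 from -0.10), keratins (-0.18 from -0.09), mitochondrial ribosome genes (-0.19 from -0.10), basal adhesion genes (0.15 from 0.09) and growth factor and MAPK genes (-0.12 from -0.08), and in 8 further lists whose median lay within 0.1 of 0 before and after. For histones too few members, 59.0%, had a position on GRCh38 in GENCODE v29 for this to be computed. By type, 1460 of 11754 coding genes were higher and 1639 lower, against 82 and 27 of 822 antisense genes, 10 and 48 of 316 processed pseudogenes and 1 and 17 of 109 snoRNA genes. The sources used here do not say whether the counting used strand, so reads of antisense genes may belong to the gene on the other strand.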

How the data were processed

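Raw read counts per gene and library, as the authors deposited them, were used for 16271 human gene IDs. Deposited enrichment tables hold an adjusted p-value per term, per the file headers, and the number of genes in the term; 2 were used, for genes higher and lower with treatment in wild type cells. Of their matched genes, all 375 and all 426 had that sign here. The authors' lists compare the same wild type groups, so neither this shared sign nor their adjusted p-values are separate evidence. The aligner was BWA 0.5.9 and the build mm9, a mouse build, per the submitters' processing notes, while the IDs are human. The sources used here do not give the build actually used, the counting tool or its strand setting. GENCODE v29 on GRCh38 held 15524 of the IDs and lacked 747.

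The test was that of edgeR 4.0.16 in R 4.3.3 (TMM, filterByExpr, robust quasi-likelihood F test, all 12 libraries in one model of 4 groups). The filter set aside 1595 genes. P-values were adjusted by Benjamini-Hochberg and called below 0.05. The script was tested on simulated data. Equal counts with another gene in all libraries were found for 808 tested genes. The alternatives were other scalings and filters, DESeq2 1.42.0, an adjusted p below 0.01, the 6 libraries alone, a replicate block and each library left out.

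The comparison, the 38 gene lists and the tests were chosen with earlier results of these data known. The rule for named genes took CYP24A1, GEM, DUSP10 and VDR. It also took called genes without overlap between the groups, the 12 with the largest change in CPM each way and, at 5 CPM or more, the 15 each way with the smallest adjusted p. It added the 20 called coding genes each way with the largest fold at 1 CPM or more, and 5 members per list with the smallest adjusted p. Genes of unsure role were counted and not named, a few others that met the rule are left unreported here, and a few list members past the rule were added after their values were seen. The matching of histone symbols was widened after values were seen; with IDs of GENCODE v29 only, 46 were tested, 1 was higher and 27 lower (median -0.45).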

Additional observations from a re-analysis of the deposited data

How the results depend on the processing

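With the 6 wild type libraries alone, the counts were 1092 higher and 1126 lower, with 60 and 38 at least 2-fold higher and lower. At an adjusted p below 0.01 they were 816 and 994, with 32 at least 2-fold lower. With a mean of at least 1 CPM required, 40 were at least 2-fold lower. Leaving out 1 library in turn gave 1010 to 1825 higher, 1102 to 1970 lower, 59 to 117 at least 2-fold higher and 44 to 76 at least 2-fold lower, with fewer samples in each fit. Other scalings, no filter and DESeq2 kept all 4 counts within 1.5 times, with 1634 to 1726 genes higher and 1842 to 1940 lower. Of 243 called genes named by the rule, 222 stayed past the threshold with the same sign in every alternative that tested them, and 0 changed sign. Many were chosen for a small adjusted p or a large change in the same data, so this share does not carry over to all called genes. Of all genes called higher and lower, 78.2% and 74.4% were also called without untreated replicate 3. COL1A1, which was not called at -0.53, ranged from -1.59 without treated replicate 1 to 1.46 without untreated replicate 3. Same-numbered libraries did not deviate together (correlations -0.17, -0.13 and -0.13), so the labels' numbers do not show a pairing, and no library correlated best with its own number. With the replicate number as a block, 1308 genes were higher and 1445 lower, with 76 and 55 at least 2-fold. Genes under about 1 CPM rest on few counts, and their folds depend on the prior count.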

Other observations

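Several called genes lay beside each other on GRCh38, and 24.5% of all genes tested were called. This was looked at within 300 kb of 6 genes chosen after their values were seen. Beside CYP4F3 on chromosome 19, its paralog CYP4F12 rose by 1.02 ± 0.12 and the noncoding gene UCA1 by 0.57 ± 0.13. In the same window WIZ also rose (0.34 ± 0.11), while AKAP8 (-0.12 ± 0.06) and AKAP8L (-0.04 ± 0.08) did not pass. Beside KLK5, the kallikrein genes KLK7 (1.00 ± 0.24), KLK8 (0.33 ± 0.09), KLK10 (0.77 ± 0.16) and KLK11 (0.66 ± 0.20) were all higher. The snoRNA gene SNORD88B was lower (-1.0 ± 0.32) and CTU1 did not pass (0.03 ± 0.10). Beside IL1B, IL1A (-1.26 ± 0.21) and the receptor antagonist gene IL1RN (-0.57 ± 0.11) fell with it. In the same window CKAP2L, which is not an interleukin gene, fell too (-0.57 ± 0.11), and SLC20A1, a phosphate transporter gene, rose (0.32 ± 0.08). Beside CXCL8 (listed as IL8), CXCL1 fell (-0.63 ± 0.10), while CXCL3 (-0.24 ± 0.41) and CXCL6 (-0.20 ± 0.32) did not pass. PFDN4, a cochaperone subunit, was the only other tested gene within 300 kb of CYP24A1 and rose by 0.71 ± 0.09. CYP4F and CEACAM genes are similar in sequence, so reads may be shared between neighbours such as CEACAM6 and CEACAM5 (1.11 ± 0.39).

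The point highest in the plot of fold against level is the lincRNA gene CTC-523E23.11, named after its values were seen. It was at 0 in every untreated library and at 2.52, 3.12 and 3.00 CPM in the treated ones (adjusted p = 3.76e-06, edgeR with Benjamini-Hochberg adjustment).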
